A study of Mus musculus with 6 samples.

Results

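Glycolysis, glycogen handling and the pentose phosphate branch were followed through 39 genes in the ventricles of 10-day-old mice. They were chosen as a list of symbols by pathway membership, with earlier results of these data known. Shares of the list set beside those of all genes are therefore descriptions only. Of the 39 symbols, 38 were listed as given, and *Gyg1* was listed under its RefSeq synonym *Gyg*. They are 39 of the 19079 genes in the deposited comparison, and all 39 had a mean of at least 10 normalized counts, as did 15181 genes in all. *Aldoa* also has a second, short entry with authors' means of 3.51 and 3.57, which is below that minimum and was not used.

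RNA was sequenced from 4 *Runx1* OE mice (Myh6-CreER with Rosa-Runx1) and from 2 littermate controls with Myh6-CreER alone, all labelled as strain C57BL/6 and, by the study's methods, kept on a C57Bl/6J background. Every animal, controls included, carried the tamoxifen-inducible Cre, which the *Myh6* promoter restricts to cardiomyocytes, and received tamoxifen on postnatal days 0 and 1. The Rosa-Runx1 allele then gives *Runx1* in those cardiomyocytes in which Cre has acted, while the RNA was taken from ventricles with all their cell types on day 10. The extraction protocol speaks of left ventricles and the series design of whole ventricles. In such bulk tissue, fewer cells of a type and less RNA per cell cannot be told apart.

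Glycolysis splits glucose into pyruvate, which is reduced to lactate or oxidised in mitochondria. Glycogen stores glucose for rapid use, and the pentose phosphate branch makes NADPH and ribose from glucose 6-phosphate. The fetal heart relies strongly on glycolysis and holds much glycogen, and after birth the mouse heart shifts towards fatty acid oxidation. Several steps have a muscle isoform beside a more widespread one, and such pairs are set side by side here.

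The values were the authors' mean of each group in normalized counts, which are counts divided by a size factor per sample. Summed over genes, the group means came to 19199157 for *Runx1* OE and 19870568 for control, and the depth of each library is not used here. *Runx1* itself had a mean of 16622 in *Runx1* OE and 40.2 in control, in the direction of the labels. Its highest library, at 25321, could only be a *Runx1* OE one, so the level was not the same in all *Runx1* OE animals. The spread within groups, recovered as described below, was 53.0%. *Xist*, which is transcribed from the inactive X chromosome of females, had means of 4584 and 8.92. Its spread was 186%, and a *Runx1* OE library could lie between 0.0156 and 7493, so not every *Runx1* OE animal need be female. Sex is thus confounded with genotype at least in part, and their effects cannot be told apart here. The 9 cardiomyocyte markers were all present and summed to a log2 ratio of -0.31, with 7 of them below 0 and a median of -0.17. Most of the drop in the sum lay in *Myh6* (means 110044 and 164720) and *Pln* (58845 and 103894). *Tnni3*, *Myl3* and *Myl2* were nearly level, with log2 ratios of 0.03, -0.05 and 0.10. Of 12 skeletal muscle markers, 7 were listed and only *Ckm* and *Acta1*, which the heart also uses, reached the minimum. No adipocyte marker reached it. All 3 atrial markers that could be tested were above 0, with summed means of 1746 in *Runx1* OE and 398 in control, a log2 ratio of 2.13. Most of both sums was *Nppa* (means 1420 and 288, log2 ratio 2.30), whose ranges left no overlap. None of the 3 passed the moderated limma test described below (adjusted p = 0.068 for *Nppa*, 0.34 for *Myl4* and 0.53 for *Myl7*). The fourth, *Sln*, had means of 22.2 and 2.53. The summed log2 ratios of the endothelial, fibroblast, smooth muscle, macrophage and erythroid markers were -0.13, -0.00394, -0.18, 0.10 and 0.14. Markers of a list did not always share a direction. Of the macrophage markers 3 were above 0 and 3 below, from -0.32 for *Csf1r* to 0.47 for *Lyz2*. Of the smooth muscle markers 2 were above 0 and 4 below, from -0.46 for *Acta2* to 0.57 for *Tagln*. What part the marked cell types had in the results was not tested. The exons of 25 of the 39 genes overlap a gene on the opposite strand. The sources used here do not state whether counting used strand. Reads from the shared stretches therefore cannot be told apart from those of the partner gene, and the size of the stretches was not measured. Of the 39 genes, 4 (*Pfkfb1*, *Pgk1*, *Phka1* and *G6pdx*) lie on the X chromosome.

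The median of the 39 genes lay close to that of all genes. Of the 39 genes, 15 had a log2 ratio of *Runx1* OE over control above 0 and 24 below 0, and their median was -0.05 (quartiles -0.25 and 0.12). Over all genes tested the median was 0.01 (quartiles -0.14 and 0.18). The means were at least 1.5 times apart for 5 of the 39, against 9.45% of all genes. These were *Aldoc* and *Slc2a1*, both higher in *Runx1* OE, where 5.49% of all genes were, and *Phkg1*, *Hk2* and *Pygb*, all lower, where 3.96% of all genes were. For 14 of the genes the group means were within 0.1 of each other on the log2 scale.

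The spread among animals was recovered from the deposited geometric mean, which falls below the group means as the libraries of a group differ, and was used in a moderated test (limma's variance moderation, two-sided, Benjamini-Hochberg over 15172 genes). This test was chosen after the data had been seen. It called 1.85% of all genes at an adjusted p under 0.05, 1.09% higher and 0.765% lower, and among the 39 genes it called *Aldoc* alone as higher and 0 as lower. At an unadjusted p under 0.05 there were 5 genes on each side, or 25.6% of the 39, where 13.0% of all genes passed, 6.3% higher and 6.7% lower. The higher ones were *Aldoc*, *Slc2a1*, *Pgam2*, *Ldha* and *Gbe1*, and the lower ones *Pygb*, *Hk2*, *Phkg1*, *Slc2a4* and *Eno3*. Only *Aldoc* is therefore said to have risen, and the other 9 are given by their values.

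**Figure D1:**
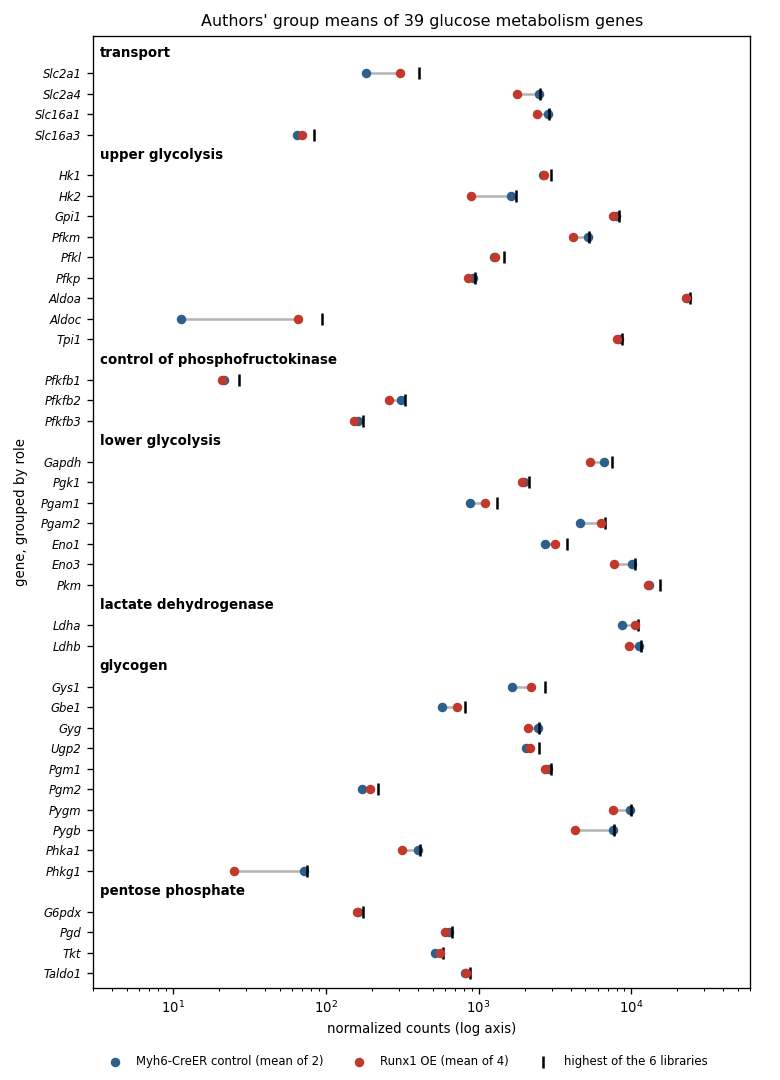
Authors' mean of each gene in Runx1 OE (red) and Myh6-CreER control (blue) ventricles, in normalized counts on a log axis, with a bar at the highest of the 6 libraries. Many pairs of points nearly coincide, while Aldoc (66.2 and 11.2) and Phkg1 (25.0 and 71.8) lie far apart.

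**Figure D2:**
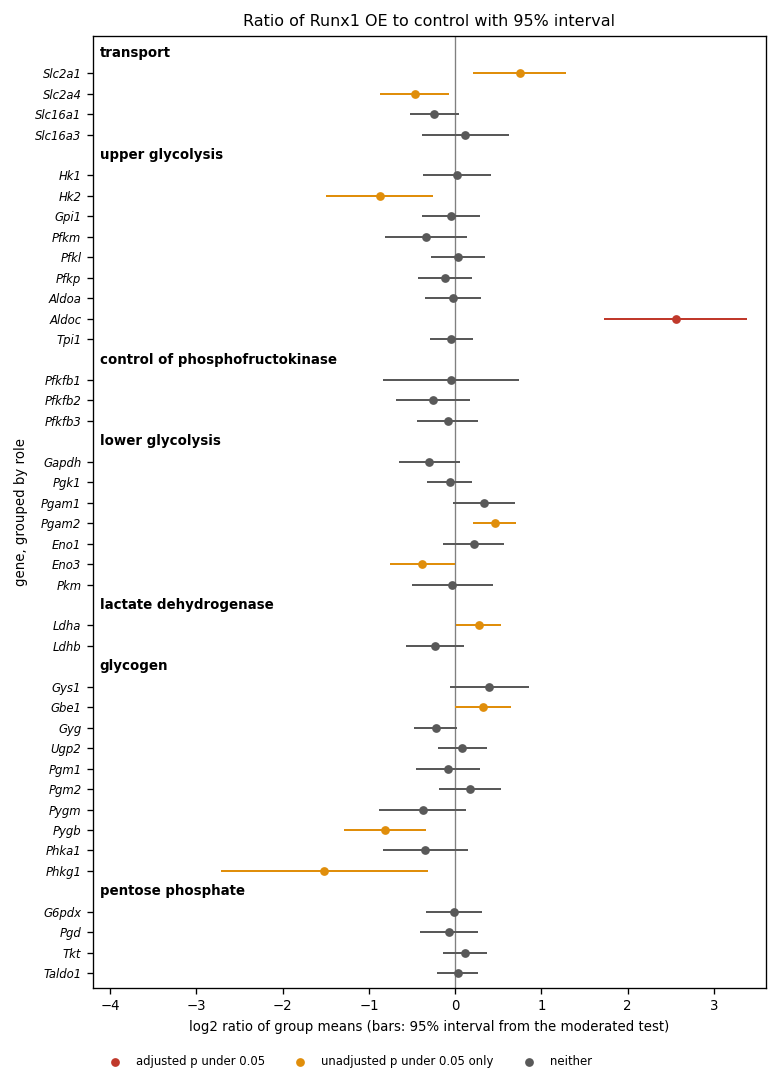
Log2 ratio of Runx1 OE over control for the 39 genes grouped by role, with the 95% interval of the moderated test. Aldoc, at 2.56, is the gene with an adjusted p under 0.05, and 9 others have intervals that leave out 0 without reaching it.

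The libraries of single animals could be confined to ranges, since each gene's maximum, total, geometric mean and group means were deposited. With a slack of 1% on the fitted means, these ranges left no overlap between the groups for *Aldoc* on the higher side and for *Pygb*, *Hk2* and *Phkg1* on the lower side. These 4 are 10.3% of the 39, where 5.73% of all genes had no overlap, 189 on the higher and 680 on the lower side. The 2 sides are not alike. Where the highest library is a control, both control values are nearly fixed, so the lower side is easier to reach. The numbers on the 2 sides therefore cannot be compared. The count of genes without overlap also depends on the slack. At 0.5%, the value used first, *Pgam2* joined on the higher and *Slc2a4* on the lower side, and at 2% only *Pygb* and *Phkg1* remained apart. The wider slack of 1% was adopted after a check on simulated data, when the values of these genes had already been seen.

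**Figure D3:**
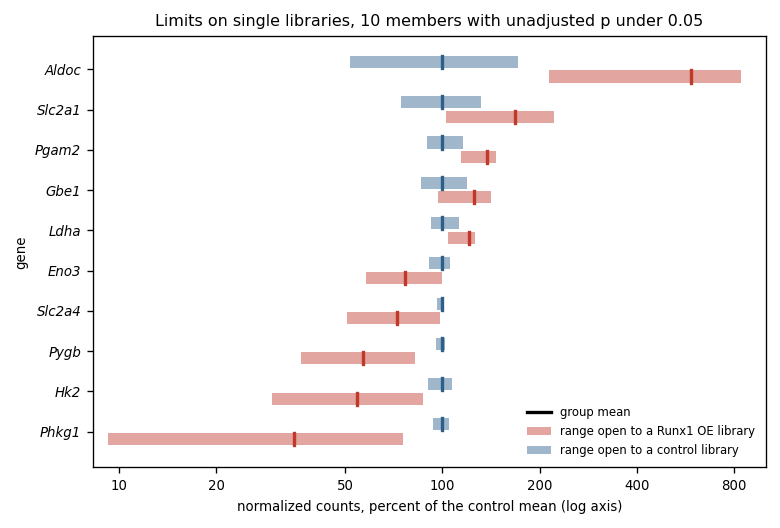
Ranges open to a single Runx1 OE library (red) and a single control library (blue), with the group means as lines, in percent of the control mean on a log axis, for the 10 genes with an unadjusted p under 0.05. The ranges of Aldoc, Pygb, Hk2 and Phkg1 do not meet at a slack of 1%.

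*Aldoc*, the aldolase isoform best known from brain (chr11:78213794-78218607, GRCm39), had authors' means of 66.2 in *Runx1* OE ventricles and 11.2 in controls. A *Runx1* OE library could lie between 24.1 and 94.0 and a control library between 5.81 and 19.3. The lowest *Runx1* OE value open to any animal was thus above the highest control value at this slack. The log2 ratio was 2.56 (SE 0.36, adjusted p = 0.011 in the moderated limma test), and it was at least 2.34 when the highest library was taken off the *Runx1* OE mean. By size of change *Aldoc* ranked 42 among 15181 genes. Its level stayed small beside *Aldoa*, the muscle aldolase. Per kilobase of transcript, *Aldoc* made up 0.158% of the sum of both in *Runx1* OE and 0.0264% in control.

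*Slc2a1*, which encodes the widespread glucose transporter GLUT1 (chr4:118965908-118995180), had means of 308 in *Runx1* OE and 183 in control. Its highest library, at 406, could only be a *Runx1* OE one. The *Runx1* OE range began at 188 and the control range ended at 242, so the groups may overlap. Its log2 ratio was 0.75 (SE 0.23, adjusted p = 0.19 in the moderated limma test).

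*Slc2a4*, the insulin-responsive transporter GLUT4 of muscle and fat, had means of 1792 and 2481. Both controls were near the top of all libraries, at 2505 and about 2457, and no *Runx1* OE library could exceed 2443. With the slack on the means a control could be as low as 2384, so the groups may overlap. The log2 ratio was -0.47 (SE 0.17, adjusted p = 0.28 in the moderated limma test). Per kilobase, *Slc2a1* made up 9.17% of the sum of both transporters in *Runx1* OE and 4.16% in control, and the 2 log2 ratios lay 1.22 apart. No error could be given for that difference, since the shared animals' covariance is not among the pooled values, and this holds for each pair of isoforms described here.

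The monocarboxylate transporters carry lactate across the cell membrane. *Slc16a1* (MCT1) had means of 2413 and 2855, a log2 ratio of -0.24 (SE 0.12). *Slc16a3* (MCT4), found mainly in cells that export lactate, had means of 70.3 and 64.8, a log2 ratio of 0.12 (SE 0.22). Neither ratio passed the test.

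Hexokinase traps glucose in the cell as glucose 6-phosphate. *Hk2*, the isoform that insulin and growth signals raise in muscle (chr6:82702006-82751435), had means of 888 in *Runx1* OE and 1631 in control. Its controls were at 1749 and about 1513, above the 1420 that a *Runx1* OE library could reach. The log2 ratio was -0.88 (SE 0.27, adjusted p = 0.18 in the moderated limma test). *Hk1*, the isoform of most tissues, had means of 2669 and 2626, a log2 ratio of 0.02 with a 95% interval of -0.36 to 0.40. The share of *Hk2* in the per-kilobase sum of both was 15.4% in *Runx1* OE and 25.4% in control.

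The next steps of upper glycolysis were nearly level between genotypes. *Gpi1*, which converts glucose 6-phosphate to fructose 6-phosphate, had a log2 ratio of -0.05, and *Tpi1*, which interconverts the triose phosphates, one of -0.04. *Aldoa* was by far the most abundant of these enzymes per kilobase, with means of 22714 and 23112. Its log2 ratio was -0.03 with a 95% interval of -0.34 to 0.29.

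Phosphofructokinase, the committed step of glycolysis, has muscle, liver and platelet subunits. *Pfkm*, the muscle subunit, had means of 4137 and 5225, a log2 ratio of -0.34 (SE 0.21). *Pfkl* and *Pfkp* had log2 ratios of 0.03 and -0.12. The bifunctional enzymes that make and remove its activator fructose 2,6-bisphosphate had log2 ratios of -0.05 for *Pfkfb1*, -0.25 for *Pfkfb2*, the heart isoform, and -0.09 for *Pfkfb3*, which many growing cells use. None of these 6 genes passed the test.

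In lower glycolysis both phosphoglycerate mutases had log2 ratios above 0. *Pgam2*, the muscle isoform, had means of 6315 and 4593, and its highest library, at 6734, could only be a *Runx1* OE one. A *Runx1* OE library could lie as low as 5237 and a control as high as 5305, so a small overlap is possible. With a spread of 5.16% among animals of a group, among the smallest of the 39, its log2 ratio of 0.46 (SE 0.10) came near the threshold without passing it (adjusted p = 0.072 in the moderated limma test). *Pgam1*, the widespread isoform, had means of 1097 and 873, a log2 ratio of 0.33 (SE 0.15). It has a near-identical copy, *Pgam1-ps2*, with means of 309 and 273 and a log2 ratio of 0.18. The division of reads between *Pgam1* and this copy is uncertain.

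Enolase has a muscle and a widespread form. *Eno3*, the muscle form, had means of 7714 and 10037, with a log2 ratio of -0.38 (SE 0.16, adjusted p = 0.36 in the moderated limma test). *Eno1*, the widespread form, had means of 3143 and 2711, a log2 ratio of 0.21 (SE 0.15). *Eno3* made up 76.4% of their per-kilobase sum in *Runx1* OE and 83.0% in control. *Eno1* has a near-identical copy, *Eno1b*, with a log2 ratio of 0.22, so the division of reads between them is uncertain.

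*Gapdh*, which oxidises glyceraldehyde 3-phosphate and often serves as a reference gene, had means of 5390 and 6631. Its controls were far apart, at 7477 and about 5785, and a *Runx1* OE library could reach 6519. The log2 ratio was -0.30 (SE 0.15). *Pgk1*, on the X chromosome, and *Pkm*, a pyruvate kinase gene, had log2 ratios of -0.06 and -0.03. Values are per gene, so different forms made from *Pkm* cannot be told apart.

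Lactate dehydrogenase is a tetramer of subunits from *Ldha*, prevalent in skeletal muscle, and *Ldhb*, prevalent in the adult heart. *Ldha* had means of 10516 in *Runx1* OE and 8708 in control, a log2 ratio of 0.27 (SE 0.11, adjusted p = 0.33 in the moderated limma test). Its recovered spread among animals of a group was 4.44%, which small errors in the fitted means could change. *Ldhb* had means of 9595 and 11248, a log2 ratio of -0.23 (SE 0.14). The 2 sums were nearly equal, with a log2 ratio of 0.01. *Ldha* made up 51.3% of the per-kilobase sum in *Runx1* OE and 42.7% in control.

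Glycogen phosphorylase releases glucose units from the granule. *Pygb*, the brain form of glycogen phosphorylase, which the heart also makes (chr2:150628655-150673678), had means of 4274 in *Runx1* OE and 7527 in control. The controls were at 7682 and about 7372, and no *Runx1* OE library could exceed 6193. The log2 ratio was -0.82 (SE 0.20, adjusted p = 0.10 in the moderated limma test). *Pygm*, the muscle phosphorylase, had means of 7544 and 9798, a log2 ratio of -0.38 (SE 0.22).

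Phosphorylase kinase switches phosphorylase on. *Phkg1*, its muscle catalytic subunit (chr5:129892262-129927390), had means of 25.0 and 71.8. The controls were at 75.3 and about 68.2, whereas a *Runx1* OE library could reach at most 54.3 and could be as low as 6.62. *Phkg1* had the widest spread of the 39, at 57.3%. That value is pooled over both groups and describes neither, since the 2 controls lay close together. The log2 ratio of -1.52 (SE 0.52) had an adjusted p of 0.25 in the moderated limma test. Its exons overlap those of *Sumf2* on the opposite strand. *Phka1*, the muscle regulatory subunit, had a log2 ratio of -0.35 (SE 0.21).

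The genes of glycogen synthesis did not share one direction. *Gys1*, the muscle glycogen synthase, had means of 2192 and 1665, a log2 ratio of 0.40 (SE 0.19). *Gbe1*, the branching enzyme, had means of 724 and 579, a log2 ratio of 0.32 (SE 0.14, adjusted p = 0.37 in the moderated limma test). *Gyg*, glycogenin, which primes the granule, had means of 2091 and 2447, a log2 ratio of -0.23 (SE 0.10). *Ugp2*, which makes UDP-glucose, and the phosphoglucomutases *Pgm1* and *Pgm2* had log2 ratios of 0.08, -0.08 and 0.17. Of the 10 glycogen genes 4 were above 0 and 6 below, with a median log2 ratio of -0.15.

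The pentose phosphate genes had ratios within a narrow range around 0. *G6pdx*, the entry enzyme, had means of 160 and 162. *Pgd*, the next dehydrogenase, had a log2 ratio of -0.07, and the carbon-shuffling enzymes *Tkt* and *Taldo1* had log2 ratios of 0.12 and 0.03. The median of the pentose phosphate genes was 0.01. The 95% interval of *Taldo1*, the narrowest of them, ran from -0.20 to 0.26, and that of *Pgd*, the widest, from -0.39 to 0.25.

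**Figure D4:**
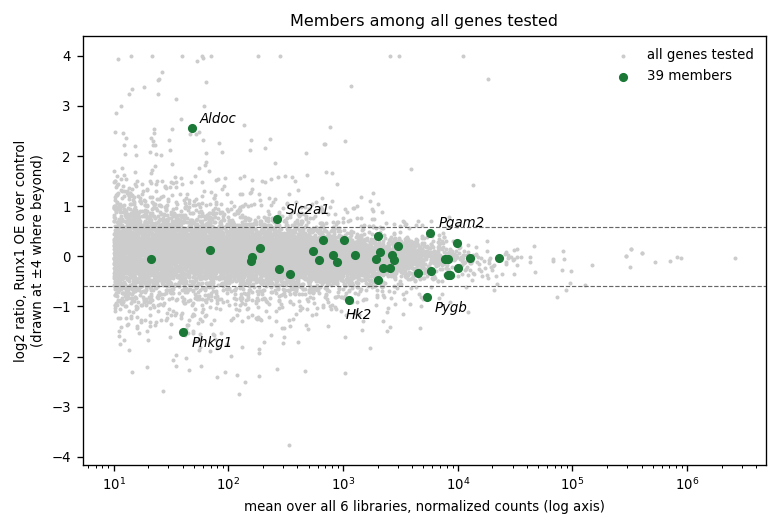
Log2 ratio of Runx1 OE over control against the mean over all 6 libraries in normalized counts (log axis), for all genes tested (grey) and the 39 genes (green), with dashed lines at a fold of 1.5. The green points lie among the grey ones apart from a few labelled genes, of which Aldoc has a log2 ratio of 2.56 and Phkg1 one of -1.52.

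Upstream sequence was read for 4 of the genes past the 1.5-fold mark, chosen after their values were known. The 250 bases before a RefSeq start were taken from the table of build GRCm38.p6 and placed on GRCm39 by a unique exact match. They are printed 5′ to 3′ in the direction of the gene. Capitals mark the RUNX core TGTGGT (or its reverse complement ACCACA) and the core ACGTG (or CACGT) of hypoxia-inducible factors, searched on both strands. *Aldoc* lies on the forward strand at chr11:78213649-78213898, *Slc2a1* on the forward strand at chr4:118965692-118965941, *Hk2* on the reverse strand at chr6:82751436-82751685 and *Pygb* on the forward strand at chr2:150628466-150628715.
Aldoc: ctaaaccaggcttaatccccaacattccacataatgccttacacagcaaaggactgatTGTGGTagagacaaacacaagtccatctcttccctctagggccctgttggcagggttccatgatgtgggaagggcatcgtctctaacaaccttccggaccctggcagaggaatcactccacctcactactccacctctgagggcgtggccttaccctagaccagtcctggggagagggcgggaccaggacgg
Slc2a1: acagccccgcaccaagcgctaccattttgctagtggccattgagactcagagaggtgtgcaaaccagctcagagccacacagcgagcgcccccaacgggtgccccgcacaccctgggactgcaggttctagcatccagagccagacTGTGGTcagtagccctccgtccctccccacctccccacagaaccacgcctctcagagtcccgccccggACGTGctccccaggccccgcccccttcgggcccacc
Hk2: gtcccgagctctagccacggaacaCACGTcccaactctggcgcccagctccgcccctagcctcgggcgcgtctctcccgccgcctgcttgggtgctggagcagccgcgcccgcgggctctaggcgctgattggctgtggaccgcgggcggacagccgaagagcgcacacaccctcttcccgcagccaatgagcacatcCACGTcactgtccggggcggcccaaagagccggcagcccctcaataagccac
Pygb: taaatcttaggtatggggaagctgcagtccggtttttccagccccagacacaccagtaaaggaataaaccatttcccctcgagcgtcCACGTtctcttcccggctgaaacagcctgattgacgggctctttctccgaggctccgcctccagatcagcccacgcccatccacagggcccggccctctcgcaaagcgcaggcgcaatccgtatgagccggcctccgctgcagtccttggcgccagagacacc
In this window *Aldoc* and *Slc2a1* each held 1 RUNX core, and *Hk2* and *Pygb* held none. *Phkg1*, also past the 1.5-fold mark, was not among the 4 genes printed. No relation between the core and the direction of change was tested. A second *Aldoc* start held neither motif. Over the table, 14.0% of 32851 promoters held the RUNX core, against 4 of 57 promoters of the module, those of *Aldoc*, *Hk1*, *Pfkp* and *Slc2a1*. Since *Hk1* and *Pfkp* had log2 ratios of 0.02 and -0.12, the core was also found in genes near 0. The hypoxia-inducible factor core was in 16.6% of all promoters and in 21 of 57 of the module, which belong to 17 of its genes. A match describes these letters only.

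Other genes of the same pathways were read from lists beside the 39. Of 51 further pathway genes 43 were tested, and 1 was called higher and 0 lower by the moderated limma test, where 1.09% and 0.765% of all genes were. At an unadjusted p under 0.05 there were 3 higher and 5 lower, where 6.3% and 6.7% of all genes were. The 1 called higher was *Ppp1r3b*, which directs protein phosphatase 1 to glycogen and so favours its synthesis. It had means of 1242 and 645 and a log2 ratio of 0.94 (SE 0.16, adjusted p = 0.023 in the moderated limma test). *Slc2a12*, the transporter GLUT12, and *Pcx*, pyruvate carboxylase, were past the 1.5-fold mark with log2 ratios of -0.86 and 0.68 and did not pass the test.

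Of 22 regulators of glucose use 2 were called higher by the moderated limma test and 0 lower, where 1.09% and 0.765% of all genes were, with 4 and 2 at an unadjusted p under 0.05, where 6.3% and 6.7% of all genes were. *Prkag2*, a regulatory subunit of the energy sensor AMPK, had a log2 ratio of 0.60 (SE 0.11, adjusted p = 0.029), and *Akt2*, the insulin-signalling kinase, one of 0.57 (SE 0.11, adjusted p = 0.037). The calls of *Ppp1r3b*, *Prkag2* and *Akt2* were lost when the moderated limma test was run without its trend on the mean (adjusted p = 0.089, 0.10 and 0.11), and that of *Akt2* also without the filter on low means (adjusted p = 0.0501). *Mlxipl*, which encodes the glucose-sensing factor ChREBP, had means of 107 and 206, a log2 ratio of -0.95 that did not pass the test. Of 14 side-branch genes 0 were called by the moderated limma test, where 1.85% of all genes were, with 2 higher and 3 lower at an unadjusted p under 0.05, against 6.3% and 6.7% of all genes. *Gpd1*, the cytosolic glycerol 3-phosphate dehydrogenase, and *Khk*, ketohexokinase, had log2 ratios of -0.90 and 0.60.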

How the data were processed

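RNA from 6 ventricle samples was assigned to groups by genotype, as the labels give it, 4 *Runx1* OE and 2 Myh6-CreER control. By the study's methods, oligo(dT) libraries were aligned with STAR to mm39, quantified against Ensembl transcripts with Partek and normalized by the median ratio, whereas HISAT2 and mm9 stand in the submitters' processing notes. Of the 19079 gene identifiers, 18992 are in GENCODE M39 and all of these overlap their gene on GRCm39. The authors deposited group means as a normalized signal, with the total, the maximum and the geometric mean over the samples. Their own p-values, fold changes and limits were also in the table and were not used. A separate table holds 6 further columns, 1 per sample. None was used, since the column names match no sample label, and grouping them by their *Runx1* values would have guessed the groups.

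The planned limma fit on values per sample could therefore not be run, and the ratio of the group means with a 1.5-fold mark took its place, as the plan provided, with no p. The moderated test was added after the data were seen. For each gene, the group means were scaled to the deposited total, the variance of the natural log values within groups was taken as the gap between the group means and the geometric mean with 4 residual degrees of freedom, and it was moderated with limma 3.58.1 (squeezeVar, trend on the mean, R 4.3.3). The variance is pooled over both groups, so the test assumes equal spread in them. The 15172 genes tested had an arithmetic mean of 10 or more and a geometric mean above 0. This test was checked on simulated data, which led to the scaling to the total, and with only 2 controls its errors rest on the moderation. Library ranges, their slack, the printed sequences, both motifs, *Eno1b*, *Pgam1-ps2* and *Xist* were also chosen after values were seen. The gene symbols and lists were chosen with earlier results of these data known. All 39 genes were named, and of other lists those called, or at least 1.5 times apart with a mean of at least 50. Alternatives were another pseudocount, filter, scaling, fold mark, moderation, chromosomes and slack.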

Additional observations from a re-analysis of the deposited data

How the results depend on the processing

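Only 2 controls and pooled values limit every error given here. Among the 39 genes, the call of *Aldoc* held in each of the 7 other settings that tested it, with adjusted p values of the moderated limma test between 0.0083 and 0.046. A minimum mean of 50 leaves *Aldoc* out, which gave 1 gene higher by fold and 0 called. A looser fold mark gave 6 higher and 8 lower, and a fold of 2 gave 1 higher and 1 lower. A slack of 0.5% gave 2 genes without overlap on the higher side and a slack of 2% gave 0. Over all genes, the counts past the fold were 2013 higher and 1346 lower without a filter, 370 and 365 at a mean of at least 50, 2113 and 1610 at the looser fold mark, 270 and 178 at a fold of 2, and 498 higher without the highest library. The moderated limma test called 81 higher and 21 lower without the trend, and 65 lower without a filter. A slack of 0.5% gave 396 genes without overlap on the higher side, and a slack of 2% gave 22 higher and 437 lower. Apart from the changed thresholds and filters, the cause was not tested. *Ppp1r3b*, *Prkag2* and *Akt2* lost their calls without the trend, and *Akt2* also without the filter, with adjusted p values of 0.017 to 0.089, 0.019 to 0.10 and 0.025 to 0.11 over 8 settings of the moderated limma test. The log2 ratios of these 3 genes and of *Aldoc* stayed above 0 in each setting run, other called genes were not followed one by one, and the other 118 counts and medians stayed within 1.5 times or within the spread. Leaving out each sample, sample weights and upper quartile scaling were not run, for lack of columns matched to samples. No paired analysis was possible because no column of values per sample could be matched to a sample, so the sample numbers of the titles could not be given to any values.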
